A study of Rattus norvegicus with 12 samples.

Results

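Albiflorin was compared with saline in the hippocampus of stressed rats by RNA sequencing, using 3 libraries labelled CUMS-Alb and 3 labelled CUMS-Sal, which are 6 of the 12 libraries of the study. A row of the expression table entered the comparison if its mean over the 12 libraries was at least 0.5 FPKM (a measure of transcript level scaled by gene length and sequencing depth). This took in 15253 of the 28959 rows, of which 13907 carry an Ensembl rat gene ID and 1346 another locus name. All animals were Sprague Dawley rats with a stated age of 6 to 7 weeks. CUMS-Alb and CUMS-Sal rats both went through chronic unpredictable mild stress (CUMS) lasting 5 weeks. In the last of these weeks CUMS-Alb rats received albiflorin at 7 mg/kg per day for 7 days, and CUMS-Sal rats received saline. The remaining groups, unstressed saline rats (Ctrl-Sal) and stressed rats given fluoxetine (CUMS-Flx, at 10 mg/kg per day in the sample labels and 7 mg/kg per day in the series text), entered the estimate of the spread between libraries and are shown where a gene is described. Whether each library is a different rat is not stated in the labels. The p-values therefore rest on library-to-library spread alone, and part of that spread may be technical.

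Chronic unpredictable mild stress exposes rodents to changing mild stressors and is used as a model of depression, with a loss of interest in rewards as its usual behavioural readout. Albiflorin is a monoterpene glycoside of peony root that has been studied as an antidepressant. Fluoxetine blocks the serotonin transporter. The hippocampus, with its excitatory pyramidal and granule neurons, inhibitory interneurons and glia, takes part in memory and in the feedback control of the stress hormone axis. Whole tissue was sequenced, so fewer cells of a type and less RNA per cell cannot be told apart. Gene IDs in the table come without gene names, and the reference used here lists no Ensembl IDs, so no match could be made. Tissue markers, pathways and sequences are therefore not shown, and single genes are given by ID.

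The CUMS-Alb libraries held 15423401, 17104118 and 17226464 reads assigned to genes, and the CUMS-Sal libraries 15657223, 15382604 and 15388653. Library values deviated from the gene means by a median of 0.02 to 0.05 log2 units in these 6 libraries, and CUMS-Alb and CUMS-Sal overlapped in this measure. Ctrl-Sal replicate 2 stood apart at -0.10, against -0.05 to 0.05 in the other 11 libraries, and it enters the shared spread.

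No gene passed the test between albiflorin and saline in stressed hippocampus. Of 15253 genes, 0 (0%) reached an adjusted p under 0.05 (limma, Benjamini-Hochberg over all genes), and the smallest adjusted p was 0.2. Limma-voom on the recovered reads also called 0 genes, with 503 at an unadjusted p under 0.05. Most genes lay close together in both groups: the median absolute log2 difference was 0.07, and percentiles 5 and 95 of the difference were 1.18-fold lower and 1.16-fold higher in CUMS-Alb. Fold changes here and below are of FPKM + 0.5, which understates the differences of low genes. By sign alone 7017 genes were higher and 8236 lower, with a median log2 difference of -0.01.

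The libraries of the 2 groups differed from each other about as much as libraries within a group. The median absolute log2 difference between a CUMS-Alb and a CUMS-Sal library was 0.111 to 0.126 over 9 pairs. It was 0.102 to 0.111 within CUMS-Alb and 0.116 to 0.133 within CUMS-Sal, over 3 pairs each. Differences were larger within CUMS-Sal than within CUMS-Alb, and 8609 genes (56.4%) had the larger standard deviation (SD) in CUMS-Sal. Pearson's correlation across genes was 0.991 to 0.992 between the groups, 0.992 to 0.993 within CUMS-Alb and 0.990 to 0.992 within CUMS-Sal. Genes within a library are not independent replicates, and these correlations are descriptions. In a principal component analysis of the 6 libraries, component 1 (23.2% of the variance) placed CUMS-Alb at 9.6, 2.3 and 4.6 and CUMS-Sal at 10.8, -14.8 and -12.5. Component 2 (22.7%) placed CUMS-Alb at 11.5, 2.9 and 8.5 and CUMS-Sal at -19.1, 0.2 and -4.1. CUMS-Sal replicate 1 lay with CUMS-Alb on the first component and at the far end of CUMS-Sal on the second, where the groups did not overlap.

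**Figure D1:**
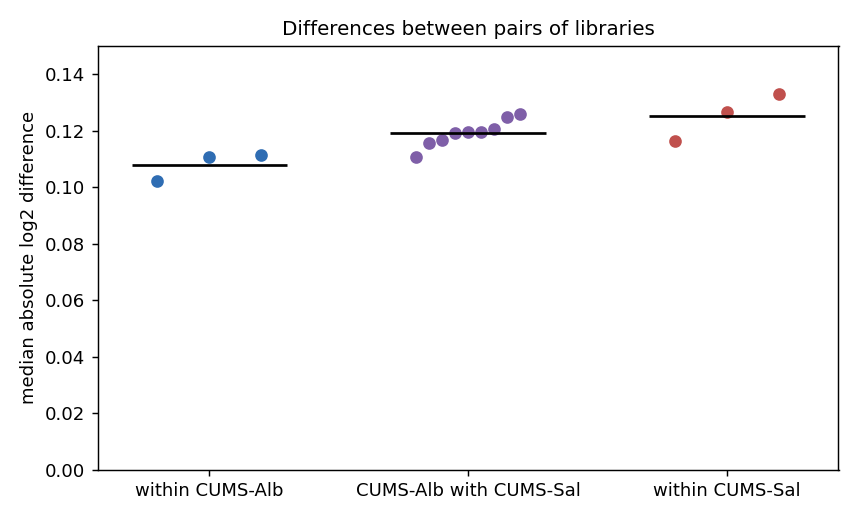
Median absolute log2 difference over 15253 genes for each pair of libraries (vertical axis, log2 units), within CUMS-Alb (3 pairs), between CUMS-Alb and CUMS-Sal (9 pairs) and within CUMS-Sal (3 pairs). Points are pairs, spread sideways by size only, and bars are means. Pairs from different groups, at 0.111 to 0.126, lay in the range of pairs from the same group, 0.102 to 0.133.

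Below the adjusted threshold, where 5% of unchanged genes are expected at an unadjusted p under 0.05, the limma fit gave 559 genes (3.66%) such a p. Of these 253 (1.66%) were higher and 306 (2.01%) lower in CUMS-Alb, with a median absolute log2 difference of 0.31. In this fit, which shares the spread of all 12 libraries, the p-values were not crowded near 0. The lowest of 20 equal bins held 559 genes and the highest, from 0.95 to 1, held 857 (5.62%). All 559 kept their sign when any 1 of the 6 libraries was left out. They were chosen by p in these same libraries, so the kept sign is no separate check. Of the 559, 110 (19.7%) had p under 0.05 in each of those 6 fits. The 3 libraries of one group lay above all 3 of the other in 1716 genes (11.3%), of which 725 (4.75%) were higher and 991 (6.5%) lower in CUMS-Alb. Both conditions were met by 446 genes, 195 higher and 251 lower. With 3 libraries a group, unchanged genes can also separate in full, so the count of 1716 is no measure of response. When the fit held CUMS-Alb and CUMS-Sal alone, 902 genes had an unadjusted p under 0.05 and 4 genes were called. Without Ctrl-Sal replicate 2, a setting chosen after seeing the data, 821 genes had an unadjusted limma p under 0.05. The count of 559 thus depends on libraries outside the comparison. With quantile normalization the lean towards lower values turned, at 318 higher and 262 lower genes at an unadjusted p under 0.05, so no direction is given for the group as a whole.

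**Figure D2:**
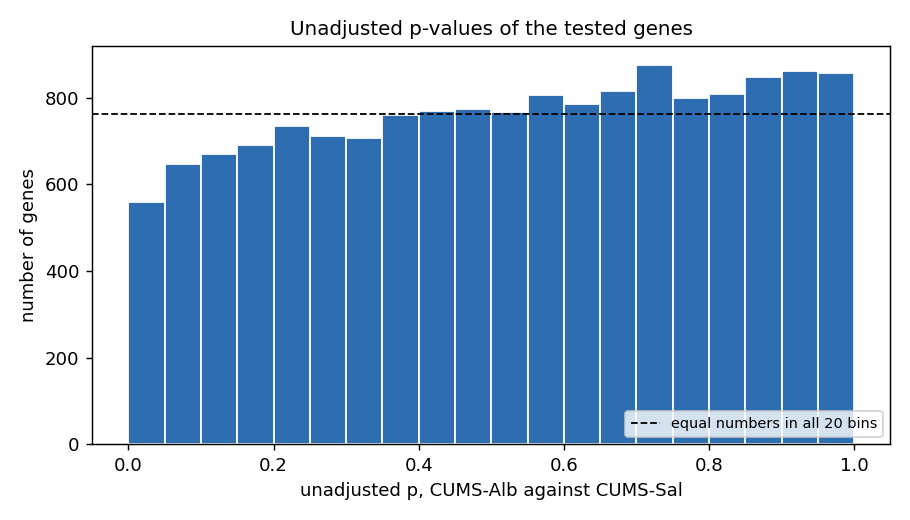
Number of genes (vertical axis) by unadjusted limma p for CUMS-Alb against CUMS-Sal in the fit of all 12 libraries (horizontal axis, 20 equal bins). The dashed line marks equal numbers in all bins. Counts run from 559 in the lowest bin to 857 in the highest.

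The size of difference that these libraries could show depended on the level of the gene. The median standard error (SE) of a log2 difference was 0.12, and a single gene at that SE would have needed a 1.89-fold difference to be called. This SE, and the intervals below, use the spread shared over all 12 libraries. The median SE was 0.096 in the fit of CUMS-Alb and CUMS-Sal alone. The 95% interval of the difference lay within 1.5-fold either way for 13199 genes (86.5%) and within 2-fold for 14869 (97.5%). The 384 genes whose interval reached past 2-fold had a median of 1.23 FPKM, against 8.12 FPKM for all genes tested. Among genes of up to 3.72 FPKM, the lowest of 3 equal classes by level, the interval lay within 1.5-fold for 68% of 5085 genes. From there to 15.4 FPKM it did so for 93.5% of 5084 genes, and above for 98% of 5084. At the median SE of each class, a single gene would have needed a 2.47-fold, 1.8-fold and 1.57-fold difference to be called, from the lowest to the highest level.

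The most abundant transcripts were close between the groups. The 100 genes of highest level, all at 387 FPKM or more, had log2 differences of -0.17 to 0.15, and the interval of all 100 lay within 1.5-fold. None of these 100 genes had an unadjusted limma p under 0.05, against 3.66% of all genes tested. Groups did not overlap in 7 of the 100, against 11.3% of all genes tested. Among the 1000 genes of highest level, at 75.7 FPKM or more, 986 had an interval within 1.5-fold. An unadjusted limma p under 0.05 was found for 22 of these 1000, against 3.66% of all genes tested. Only 1 of the 1000, ENSRNOG00000043098 described below, differed by over 1.5-fold.

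Short and low genes held most of the larger differences. A difference of over 1.5-fold was seen in 134 genes (0.879%), 63 higher and 71 lower, and one of over 2-fold in 29 (0.19%), 17 higher and 12 lower. Of the 134 genes, 79 had a mean under 2 FPKM, 104 had fewer than 50 reads per library on average, and 77 had groups that did not overlap. Over all 15253 genes these counts were 3366, 2706 and 1716. Of the 29 genes, 20 had groups that did not overlap, 9 of them higher and 11 lower in CUMS-Alb, and 21 had an unadjusted p under 0.05. Over all genes the shares were 11.3% and 3.66%, and a choice by large difference itself favours separated groups and small p. Leaving out 1 library took 3 of the 29 under 1.5-fold. By length, 117 of the 134 genes were in the shortest of 3 equal classes, up to 1603 bp, 13 in the middle class and 4 in the longest, over 2805 bp. The share at an unadjusted p under 0.05 was 5.74% in the shortest class, 3.21% in the middle and 2.05% in the longest. The shortest class had a median of 135 reads per library against 548 in the longest, and the part of read depth in this order was not tested. By annotation, the share at an unadjusted p under 0.05 was 3.65% in the 13907 rows with an Ensembl ID and 3.79% in the 1346 without one.

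**Figure D3:**
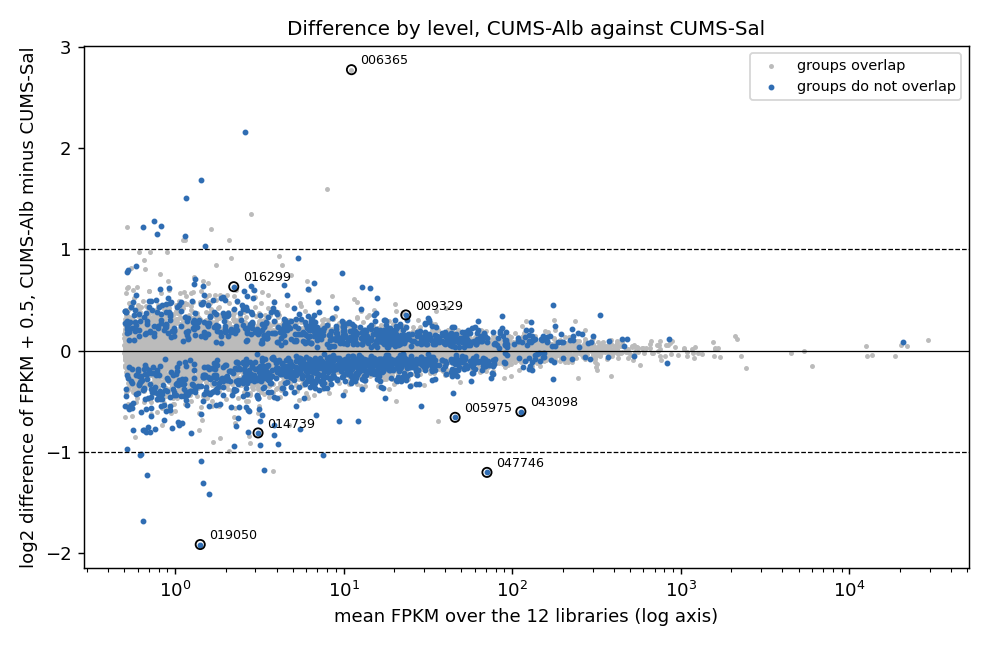
Log2 difference of FPKM + 0.5, CUMS-Alb minus CUMS-Sal (vertical axis), by mean FPKM over the 12 libraries (horizontal axis, logarithmic), for 15253 genes. Blue points are the 1716 genes whose groups do not overlap, grey points the others, dashed lines mark 2-fold, and circles with the last 6 digits of the gene ID mark the genes described one by one. Of the 29 genes outside the dashed lines, 20 had a mean under 2 FPKM, against 3366 of all 15253.

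The gene with the smallest p, ENSRNOG00000019050 (2068 bp), was read in every CUMS-Sal library and nearly absent from CUMS-Alb. It had 1.85, 1.32 and 1.16 FPKM in CUMS-Sal, from 60, 42 and 37 reads. In CUMS-Alb it had 0.0314, 0 and 0 FPKM, from 1, 0 and 0 reads. The groups did not overlap, and the pooled reads scaled by library totals gave a ratio of 0.00671 (95% interval 0.000169 to 0.038, counting error only). Ctrl-Sal libraries had 42, 37 and 46 reads of this gene and CUMS-Flx libraries 109, 45 and 161, so that CUMS-Alb stood below all 9 other libraries. The log2 difference from CUMS-Sal was -1.91 (SE 0.28, 95% interval -2.51 to -1.32, adjusted p = 0.2 in limma). Its adjusted limma p was 0.0224 when the fit held CUMS-Alb and CUMS-Sal alone and 0.00188 with a pseudocount of 0.1, where the log2 difference was -3.79. These were the only 2 of 18 alternatives that called it. The adjusted limma p was 0.559 with a pseudocount of 1 and 0.99999 with limma-voom on recovered reads. It was 0.555 to 0.9999 over the fits without 1 of the 6 libraries compared. Among 14042 genes with at least 30 reads in the highest of the 6 libraries, it was the only one more than 10-fold under that highest value in all 3 CUMS-Alb libraries and in no CUMS-Sal library. No gene had the opposite pattern (0 of 14042). The 10-fold and 30-read limits were set after the values were seen, and ENSRNOG00000019050 was known from earlier results of these data. These counts therefore describe the gene and are no separate check.

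ENSRNOG00000014739 (610 bp) was the other gene of smallest p among those lower in CUMS-Alb. Its level was 4.19, 3.84 and 3.84 FPKM in CUMS-Sal, from 40, 36 and 36 reads, and 2.13, 1.73 and 2.28 FPKM in CUMS-Alb, from 20, 18 and 24 reads. The groups did not overlap, and CUMS-Alb also lay below every CUMS-Flx library (2.96, 3.63 and 2.72 FPKM) and every Ctrl-Sal library (3.11, 2.93 and 3.96 FPKM). The log2 difference from CUMS-Sal was -0.81 (SE 0.13, 95% interval -1.10 to -0.52, adjusted p = 0.379 in limma).

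Of the genes higher in CUMS-Alb, ENSRNOG00000009329 (2323 bp) had the smallest p, and its levels in CUMS-Alb overlapped those of unstressed rats. It had 24.6, 25.9 and 25.2 FPKM in CUMS-Alb (mean 25.3 ± 0.68, SD, n = 3), 18.3, 20.1 and 20.7 in CUMS-Sal (19.7 ± 1.28), 22.8, 23.3 and 22.6 in CUMS-Flx (22.9 ± 0.398) and 25.1, 25.7 and 26.3 in Ctrl-Sal (25.7 ± 0.612). CUMS-Sal was the lowest group, with no overlap with any other. The log2 difference between CUMS-Alb and CUMS-Sal was 0.35, or 1.28-fold (SE 0.06, 95% interval 0.22 to 0.48, adjusted p = 0.379 in limma). In the same limma fit CUMS-Sal minus Ctrl-Sal was -0.38 (adjusted p = 0.0161) and CUMS-Alb minus Ctrl-Sal was -0.03 (adjusted p = 0.82). These comparisons share the CUMS-Sal, CUMS-Alb and Ctrl-Sal libraries pairwise and are not independent of each other. The gene was picked for its difference between CUMS-Alb and CUMS-Sal, which favours low CUMS-Sal values in the comparison with Ctrl-Sal too. The 95% interval of CUMS-Alb minus Ctrl-Sal was -0.16 to 0.11, so the adjusted limma p of 0.82 does not show equal levels. With 664 to 1031 reads per library in the groups compared, this was the most deeply read of the 4 genes of smallest p.

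ENSRNOG00000016299 (2366 bp) was also higher in CUMS-Alb. It had 2.63, 2.77 and 2.90 FPKM in CUMS-Alb, from 96, 112 and 118 reads, and 1.46, 1.54 and 1.84 FPKM in CUMS-Sal, from 54, 56 and 67 reads. CUMS-Flx, at 2.41, 3.21 and 2.47 FPKM, overlapped CUMS-Alb, and Ctrl-Sal, at 1.63, 1.86 and 2.04 FPKM, overlapped CUMS-Sal. The log2 difference between CUMS-Alb and CUMS-Sal was 0.63, or 1.55-fold (SE 0.13, 95% interval 0.36 to 0.90, adjusted p = 0.957 in limma). The same contrast for CUMS-Flx was 0.59 (adjusted p = 0.298 in limma) and shares the CUMS-Sal libraries.

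**Figure D4:**
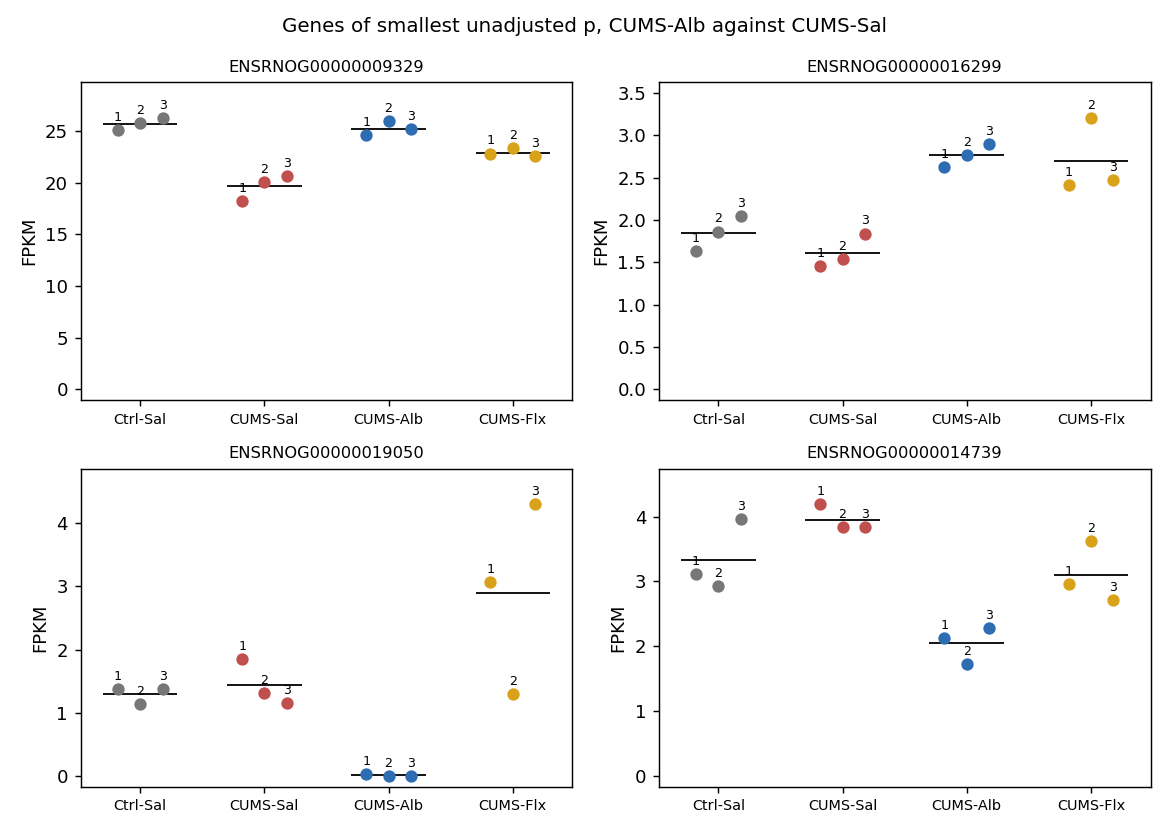
FPKM (vertical axis, from 0) of the 2 genes of smallest p higher in CUMS-Alb (upper panels) and the 2 lower (lower panels), in the 12 libraries by group. Points are libraries with their replicate number and bars are group means. CUMS-Alb and CUMS-Sal do not overlap in any of the 4 panels, and ENSRNOG00000019050 lies at 0 to 0.0314 FPKM in CUMS-Alb.

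A further 4 genes were called only under some alternative, and 3 of them were lower in CUMS-Alb. They did not have the smallest p values and are named because an alternative called them. ENSRNOG00000043098 (382 bp), the only gene of the 1000 most abundant past 1.5-fold, had 79.3, 85.2 and 94.1 FPKM in CUMS-Alb and 139.8, 128 and 125 in CUMS-Sal. CUMS-Flx, at 99.3, 91.1 and 77.9 FPKM, overlapped CUMS-Alb, and Ctrl-Sal, at 149, 171 and 112 FPKM, overlapped CUMS-Sal. The log2 difference between CUMS-Alb and CUMS-Sal was -0.60 (SE 0.14, unadjusted p = 0.00074 and adjusted p = 0.9996 in limma). Its adjusted limma p was 0.0454 in the fit of CUMS-Alb and CUMS-Sal alone.

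ENSRNOG00000005975 (348 bp) was at 31.7, 34.4 and 27.7 FPKM in CUMS-Alb and at 49.0, 48.9 and 50.4 FPKM in CUMS-Sal. CUMS-Flx, at 47.1, 52.1 and 53.9 FPKM, also lay above CUMS-Alb, while Ctrl-Sal ranged from 30.1 to 83.2 FPKM. The log2 difference between CUMS-Alb and CUMS-Sal was -0.66 (SE 0.25, unadjusted p = 0.0235 and adjusted p = 0.9996 in limma). Its adjusted limma p was 0.0454 in the fit of these groups alone and 0.0474 in a fit of the 9 libraries of stressed rats.

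ENSRNOG00000047746 (1140 bp) was at 4.21, 3.18 and 2.85 FPKM in CUMS-Alb and 9.75, 7.93 and 7.70 FPKM in CUMS-Sal, groups that did not overlap. One unstressed library was far from these, since Ctrl-Sal had 4.64, 9.53 and 782 FPKM, the last from 14383 reads in replicate 3. CUMS-Flx had 1.33, 2.52 and 14.97 FPKM. The log2 difference between CUMS-Alb and CUMS-Sal was -1.20, with an SE of 1.61 when the spread was shared over all groups (unadjusted p = 0.473 and adjusted p = 0.9996 in limma). Its adjusted limma p was 0.0454 in the fit of CUMS-Alb and CUMS-Sal alone and 0.945 in the fit of the 9 libraries of stressed rats.

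ENSRNOG00000006365 (4236 bp) was the gene with the largest log2 difference of the 15253, and its CUMS-Sal libraries fell far apart. It had 0.121, 14.6 and 0.169 FPKM in CUMS-Sal, from 8, 953 and 11 reads, against 14.7, 15.1 and 7.98 FPKM in CUMS-Alb, from 961, 1096 and 582 reads. CUMS-Flx, at 14.7 to 15.8 FPKM, and Ctrl-Sal, at 8.18 to 13.7 FPKM, held no library as low as CUMS-Sal replicates 1 and 3. The groups overlapped through CUMS-Sal replicate 2, and the log2 difference was 2.78 (SE 1.01, unadjusted p = 0.0213 and adjusted p = 0.9996 in limma). Pooled reads of ENSRNOG00000006365 scaled by library totals gave a ratio of 2.53 (95% interval 2.35 to 2.73, counting error only). Of the 972 pooled CUMS-Sal reads, 953 came from replicate 2, so the CUMS-Sal side of this ratio rests on 1 library. The limma 95% interval, which takes in the spread between libraries, was 1.43-fold to 32.8-fold. The log2 difference rested on which CUMS-Sal libraries were used: it was 4.29 without replicate 2 (adjusted p = 4.29e-05 in limma), 1.99 without replicate 1 (adjusted p = 0.9995 in limma) and 2.04 without replicate 3 (adjusted p = 0.9996 in limma).

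ENSRNOG00000006365 was 1 of 19 genes, of 14042 with at least 30 reads in the highest of the 6 libraries, that spanned at least 10-fold among CUMS-Alb and CUMS-Sal. A library more than 10-fold under the highest was found in both groups for 7 of the 19, in CUMS-Sal only for 8 and in CUMS-Alb only for 4. The genes picked out here from the 19 were chosen after their values were seen, so what follows is a description. ENSRNOG00000014350 (1984 bp) had 138, 96 and 193 reads in CUMS-Alb and 21, 4 and 32 in CUMS-Sal, or 4.51, 2.83 and 5.65 FPKM against 0.676, 0.131 and 1.05. The groups did not overlap, and the log2 difference was 2.16 (unadjusted p = 0.000314 in limma, not called after adjustment). CUMS-Flx had 3.99, 3.59 and 2.23 FPKM of this gene, and Ctrl-Sal, at 0.718 to 4.06 FPKM, spanned both levels.

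A pair of the 19 genes was read in some libraries of every group and nearly absent from the rest. ENSRNOG00000026051 (1131 bp) and ENSRNOG00000060523 (598 bp) reached at least 30 reads in the same 5 of 12 libraries, with 55 to 109 and 70 to 102 reads. In the other 7 libraries each had at most 2 reads. Replicate 1 was the library with reads in both CUMS-Alb (79 and 94 reads) and CUMS-Sal (71 and 70 reads), and the log2 differences between these groups were 0.04 and -0.03.

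**Figure D5:**
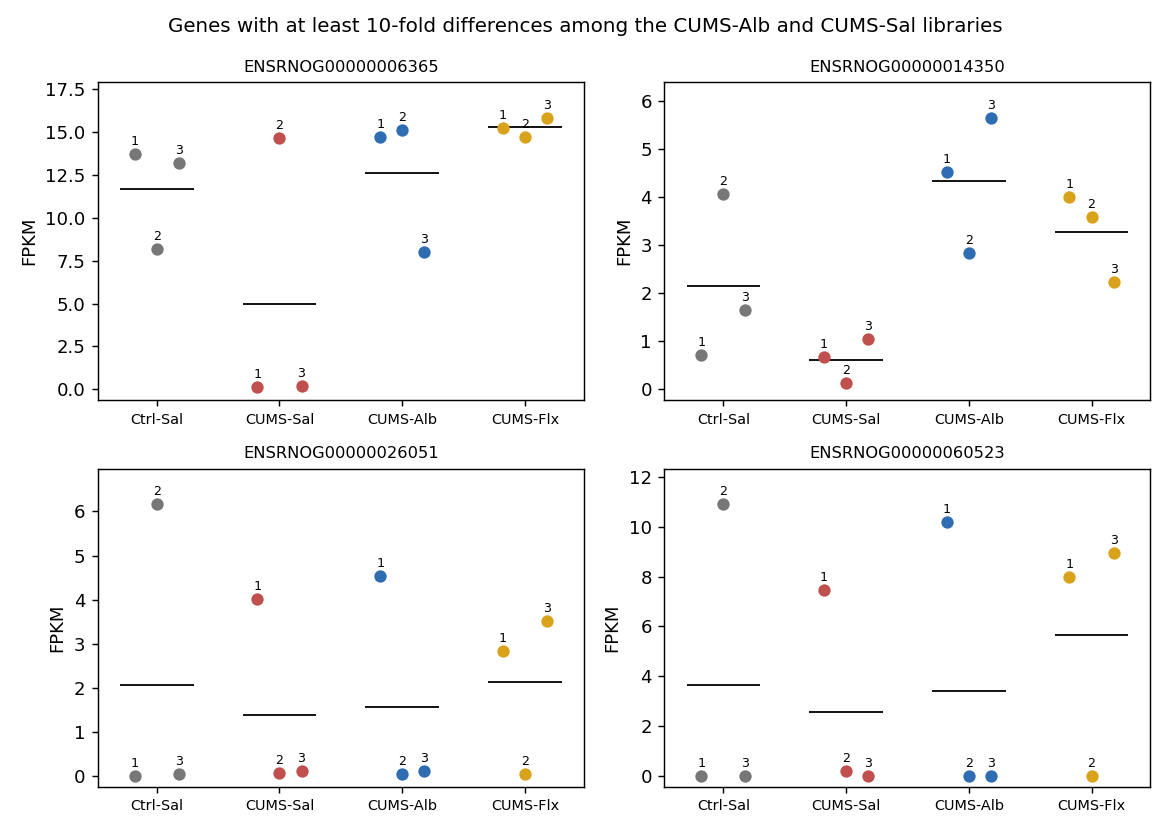
FPKM (vertical axis, from 0) in the 12 libraries by group for 4 of the 19 genes that span at least 10-fold among CUMS-Alb and CUMS-Sal. Points are libraries with their replicate number and bars are group means. ENSRNOG00000006365 is near 0 in CUMS-Sal replicates 1 and 3 alone, and the lower panels show a pair of genes high in the same 5 libraries.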

How the data were processed

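Per the labels' protocols, RNA was extracted with TRIzol from snap-frozen hippocampi and sequenced by standard Illumina methods. TopHat2 and the rat build rn6 are named per the submitters' processing notes. Not given in the sources used here were the read counter, annotation and strand setting. Values in the table the authors deposited, 28959 rows in 12 columns, are FPKM. The header names no unit, which was read from the step that 1 read makes in each gene's values. Whole reads and gene lengths were recovered for 22737 of the 22737 rows above 0 (within 0.0001 of a read), giving totals of 14735953 to 18109623 reads per library. Reads of rows that are sparse in all libraries can be understated by a common factor. The squared read difference was a median of 2.37 to 3.06 times counting noise between CUMS-Alb and CUMS-Sal libraries, and 2.21 to 3.24 times within these groups. No CUMS-Alb or CUMS-Sal library was a copy of another in these groups. Pairs with Ctrl-Sal or CUMS-Flx libraries were not compared in this way.

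Limma 3.58.1 in R 4.3.3, with trend and robust settings, fitted log2(FPKM + 0.5) of rows averaging 0.5 FPKM or more, in all 12 libraries, with 1 coefficient for each of 4 groups. A call needed an adjusted p under 0.05 (Benjamini-Hochberg). The unadjusted threshold was 0.05, and read ratios have exact 95% intervals. Members, lists and rules were chosen with earlier results of these data known. The rule for named genes asked for gene symbols, which no row carries, and was applied to IDs. It was also shortened: the plan took the 12 genes of smallest unadjusted p per direction, and only 2 are named here. These had non-overlapping groups and at least 1 FPKM in the higher group. Genes called under an alternative and ENSRNOG00000019050 were named as well. Because no row carries a symbol, 20 gene lists and 16 marker lists could not be applied. Reads shared with near-identical or overlapping genes could not be set apart. Alternatives were other limma settings, scalings, filters, pseudocounts, sample sets, limma-voom on recovered reads, a replicate block and leaving out each library. Both the fit and the read recovery were checked on simulated data. Python 3.11.15, numpy 2.4.6, pandas 2.3.3 and matplotlib 3.10.9 were used.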

Additional observations from a re-analysis of the deposited data

How the results depend on the processing

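The count of called genes stayed at 0 with limma without trend and robust settings, with both other scalings, both other filters, a pseudocount of 1, limma-voom on recovered reads (503 genes at an unadjusted p under 0.05) and an adjusted p under 0.1. It was 1 with a pseudocount of 0.1, 4 in the fit of CUMS-Alb and CUMS-Sal alone, and 0 to 1 over fits without 1 library, the 1 being ENSRNOG00000006365 without CUMS-Sal replicate 2. Genes at an unadjusted p under 0.05 (559) numbered 922 over every row above 0, which tests more genes, 302 at a minimum mean of 5 FPKM, which tests fewer, and 902 in the fit of these groups alone. Settings chosen after seeing the data gave 841 genes, 1 of them called, in the 9 libraries of stressed rats, 1030 with array weights, and 821 without Ctrl-Sal replicate 2, with 0 called in both of these last fits. The split of 253 higher and 306 lower became 318 and 262 with quantile normalization and 314 and 257 after centring each library on its median deviation. Genes whose groups do not overlap (1716) numbered 1082 at a minimum of 5 FPKM and 2965 to 3771 without 1 library, where fewer libraries have to be separated. Genes over 2-fold (29) numbered 4 at a minimum of 5 FPKM, 85 and 12 with pseudocounts of 0.1 and 1, 92 with limma-voom, and 32 to 47 without 1 of the 6 libraries compared, 47 being without CUMS-Sal replicate 1 (29 without Ctrl-Sal replicate 2, which does not enter this difference). Intervals within 2-fold (14869) numbered 9228 at a minimum of 5 FPKM, which tests fewer genes. Where no reason is given, the cause was not tested. The 8 genes named by the rule above kept their sign under every alternative in which they were tested. They were chosen from these same libraries, so the kept sign is no separate check. ENSRNOG00000019050 ranged from -6.09 to -1.27 in log2 difference and from 0.00188 to 1 in adjusted limma p. With the replicate number as a block 0 genes were called and 523 had an unadjusted p under 0.05, of which 455 were among the 559. Deviations of CUMS-Alb and CUMS-Sal libraries of the same number correlated at 0.01, 0.03 and -0.01. The labels do not state what the replicate number stands for, and correlations over all genes cannot settle it. Medians of the gene lists were not run, because no row carries a symbol.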

Other observations

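A further 7484 rows were above 0 in some library but below the mean of 0.5 FPKM, and were outside the comparison. Of these 820 had 0 reads in all CUMS-Alb libraries and some in CUMS-Sal, at most 17 in all, and 937 had 0 reads in all CUMS-Sal libraries and some in CUMS-Alb, at most 12. With at least 3 reads in each library of the other group, the counts were 0 and 1. Among the 15253 genes compared, 0 had no read in a whole group.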
